A study of Homo sapiens with 6 samples.

Results

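The genes of the aryl hydrocarbon receptor pathway were examined in liver cancer cells that overexpress transketolase (TKT), an enzyme of the pentose phosphate pathway. They are 8 of the 22077 genes listed in the count table, namely the receptor AHR, its partner ARNT, the enzymes CYP1A1, CYP1A2, CYP1B1 and ALDH3A1, and the feedback regulators AHRR and TIPARP. The genes were taken by symbol and were chosen by earlier results of the same contrast, in which the difference of CYP1A1 between TKT and control libraries was already known. Their fold changes between these groups are therefore a description and carry no p-value. RNA-seq covered 3 libraries of the over-expression group (TKT1 to TKT3) and 3 of the control group (VC1 to VC3), with a wt genotype in the labels. The labels give the cell line as Hu7, the study's Results name Huh7, a human hepatocellular carcinoma line, and its Methods name HCCLM3 for this experiment. Overexpression came from a plasmid that also carries GFP and a puromycin resistance gene. The control libraries are titled VC, and what the control cells carried is not given in the sources used here. The labels call each library a biosample and do not say that the cultures were separate, so errors and p-values cover the spread between these libraries, which may be technical. Anything else that the 3 libraries of a group share, such as transfection and selection, cannot be told apart from TKT itself.

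AHR is a transcription factor of the bHLH-PAS family that is held in the cytoplasm by HSP90 and cochaperones until it binds a planar aromatic ligand, such as a dioxin, a polycyclic hydrocarbon or a product of tryptophan breakdown. It then enters the nucleus, pairs with ARNT and binds the xenobiotic response element of its target genes. CYP1A1 is its best known target and is used as a marker of receptor activity in liver cells, while AHRR and TIPARP are targets that dampen the receptor in return.

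CYP1A1 and CYP1A2 are paralogues that lie head to head on chromosome 15, with starts 23317 bases apart, and TIPARP lies on chromosome 3. The 250 bases before an annotated start of each are shown because CYP1A1 was the member with the largest fold change, CYP1A2 is its neighbour with almost no counts, and TIPARP is another classical target. The sequences were taken from RefSeq (GRCh38.p14) and are written 5′ to 3′ on the strand of the gene. Capitals mark the core of the xenobiotic response element, GCGTG, which reads CACGC when it lies on the other strand, and the TATA motif TATAAA.
CYP1A1, chr15:74725529-74725778, minus strand: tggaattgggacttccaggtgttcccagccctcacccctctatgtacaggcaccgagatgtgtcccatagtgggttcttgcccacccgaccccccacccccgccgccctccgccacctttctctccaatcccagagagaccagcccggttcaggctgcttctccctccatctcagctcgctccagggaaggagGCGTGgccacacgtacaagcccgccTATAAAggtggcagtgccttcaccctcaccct
CYP1A2, chr15:74748595-74748844, plus strand: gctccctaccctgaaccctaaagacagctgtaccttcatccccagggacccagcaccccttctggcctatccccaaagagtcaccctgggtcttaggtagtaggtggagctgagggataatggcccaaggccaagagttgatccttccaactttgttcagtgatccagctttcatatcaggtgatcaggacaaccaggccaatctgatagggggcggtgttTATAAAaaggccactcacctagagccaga
TIPARP, chr3:156674340-156674589, plus strand: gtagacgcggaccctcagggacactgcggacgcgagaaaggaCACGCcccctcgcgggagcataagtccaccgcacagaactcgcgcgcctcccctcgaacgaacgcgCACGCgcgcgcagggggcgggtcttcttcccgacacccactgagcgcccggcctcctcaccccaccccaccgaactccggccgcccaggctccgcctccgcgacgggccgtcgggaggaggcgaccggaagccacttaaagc
The CYP1A1 stretch held 1 core, whose first base lay 57 bases before the start, and a TATA motif 32 bases before it. The CYP1A2 stretch held a TATA motif 29 bases before the start and no core. The TIPARP stretch held 2 cores on the other strand, 208 and 142 bases before the start, and the windows at the other TIPARP starts held none. In windows from 250 bases before to 50 bases after a start, searched on both strands, 4 of the 6 members with an entry had the core in at least 1 window (AHR, AHRR, CYP1A1 and TIPARP), and ARNT and CYP1A2 had none. Counted by window, since AHRR and TIPARP have several starts, 5 of 9 held it. The core is short, and 36.5% of all 35116 such windows held it, while 7.33% held TATAAA on the strand of the gene. A match is a description of these letters and not a binding site. Bases further from the starts were not searched, so a window without a core does not mean a gene without one. CYP1B1 and ALDH3A1 had no entry.

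The libraries held between 30148788 and 37096156 counts. TKT had 497, 469 and 515 CPM (counts relative to TMM-adjusted library totals) in VC1 to VC3 and 9402, 9549 and 9392 CPM in TKT1 to TKT3, a log2 fold change of 4.26 (standard error, SE, 0.04). All 13 hepatocyte markers were listed, with a summed level of 24350 to 25273 CPM in control and 25032 to 25668 CPM in TKT libraries. Most of this sum came from few genes such as ALB and AFP, and FGB (log2 fold change 0.50, edgeR adjusted p = 8.85e-10) rose and APOA2 (-0.13, adjusted p = 0.0274) fell. Of 8 fibroblast and stellate cell markers 6 were listed (5.19 to 5.46 CPM in sum in control, 4.91 to 6.35 CPM with TKT, COL1A1 under 1 CPM). Of 7 endothelial markers 3 were listed (17.3 to 20.7 CPM in control, 15.4 to 19.9 CPM with TKT, nearly all PECAM1). Of 8 leukocyte markers 5 were listed, and their sum was lower with TKT (154 to 164 CPM in control, 123 to 129 CPM with TKT). Nearly all of the sum came from the lysozyme gene LYZ (log2 fold change -0.35, edgeR adjusted p = 1.71e-05). The part of this difference in the results was not tested. In bulk RNA, fewer cells with a transcript and less transcript per cell cannot be told apart.

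Of the 8 members, 6 passed the filter on low counts, and CYP1A2 and AHRR did not. With edgeR's quasi-likelihood test over 14162 genes at a Benjamini-Hochberg adjusted p under 0.05, 4 members (CYP1A1, CYP1B1, TIPARP and AHR) lay on the higher side, where 5.69% of all tested genes lay, and 0 on the lower side, where 4.94% lay. The number on the higher side was 2 without VC1, 2 without TKT1 and 2 without TKT3. At an absolute log2 fold change over 1 as well, 0 members and 0.727% of all tested genes passed. The groups did not overlap for 4 members and for 28.0% of all tested genes. The median log2 fold change was 0.26 over the 6 tested members and 0.00082 over all tested genes. Since this contrast chose the members, nothing is read from these counts or medians.

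**Figure D1:**
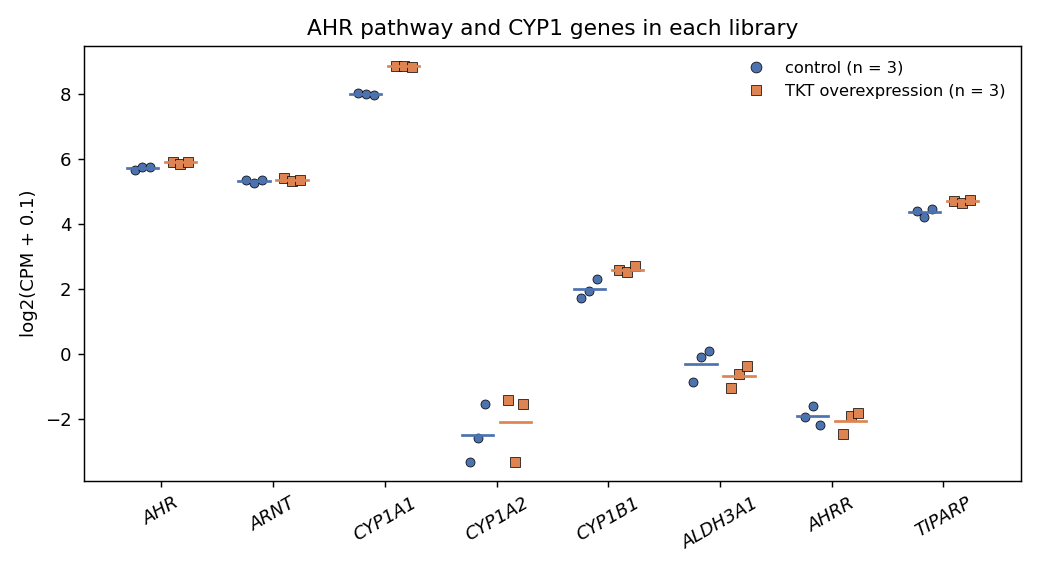
Level of the 8 members in each library, as log2(CPM + 0.1), with 1 point per library and a line at the mean of the 3 log values of a group (control and TKT overexpression, n = 3 each). CYP1A1 stands far above the other members in both groups and its TKT points lie above its control points, while the points of ARNT, ALDH3A1, CYP1A2 and AHRR overlap between the groups.

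Per gene length, CYP1A1 was by far the most abundant member. In control libraries the mean levels in FPKM (fragments scaled by the authors for gene length and library depth) ran from CYP1A1 at 75.5 ± 1.61 (SD, n = 3) through AHR at 6.52 ± 0.234, ARNT at 6.14 ± 0.134, TIPARP at 4.22 ± 0.307, CYP1B1 at 0.647 ± 0.131 and ALDH3A1 at 0.190 ± 0.0677 to CYP1A2 at 0.0321 ± 0.0388 and AHRR at 0.0178 ± 0.00608. The ranges of AHR (6.27 to 6.73 FPKM) and ARNT (5.98 to 6.22 FPKM) lay next to each other without overlap. CYP1A2 and AHRR were the only neighbours in this order whose ranges overlapped. The order of the means was the same with TKT, from 138 ± 0.953 FPKM for CYP1A1 and 7.37 ± 0.274 FPKM for AHR down to 0.0149 ± 0.00573 FPKM for AHRR.

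The receptor and its partner differed little between the groups. AHR (chr7:17298652-17346147, plus strand) had 50.9, 53.9 and 53.6 CPM in VC1 to VC3 and 60.5, 57.6 and 60.2 CPM in TKT1 to TKT3. All TKT libraries lay above all control libraries, and the lowest of them was 1.07 times the highest control. The log2 fold change of AHR was 0.17 (SE 0.05), or 1.13-fold. ARNT (chr1:150809713-150876599, minus strand), which AHR needs in order to bind DNA, had 40.5, 38.4 and 40.5 CPM in control and 42.4, 39.6 and 40.7 CPM in TKT libraries. The ARNT values of the groups overlapped, with a log2 fold change of 0.04 (SE 0.06).

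CYP1A1, the cytochrome P450 that oxidises polycyclic aromatic hydrocarbons and estrogens, showed the widest gap among the members. The gene (chr15:74719542-74725528, minus strand) had 8183, 7732 and 8401 counts in VC1 to VC3 and 17357, 14432 and 14973 counts in TKT1 to TKT3. Scaled, these were 260, 255 and 250.3 CPM in control and 468, 468 and 455 CPM with TKT. The libraries of a group lay close together, with a coefficient of variation of 1.98% in control and 1.59% with TKT, and the lowest TKT library was 1.75 times the highest control. The mean went from 255 ± 5.06 CPM to 464 ± 7.40 CPM (SD, n = 3), a log2 fold change of 0.86 (SE 0.04), or 1.82-fold. The log2 fold change lay between 0.85 and 0.88 in all 16 alternative settings.

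The difference of CYP1A1 was known when the members were chosen, so its rank among genes is a description. For a gene of this abundance the difference was large. In control libraries 689 tested genes were at least as abundant in CPM as CYP1A1 (CYP1A1 included), and TKT alone among them had a larger absolute log2 fold change. By mean FPKM CYP1A1 stood at rank 543 of all listed genes in control and at rank 261 with TKT. CSK and EDC3, genes near it on chromosome 15, did not share its value. Their log2 fold changes were -0.12 (SE 0.05) for CSK, a kinase that restrains SRC, and -0.02 (SE 0.05) for EDC3, an mRNA decapping factor. The neighbour CYP1A2 had too few counts for a fold.

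**Figure D2:**
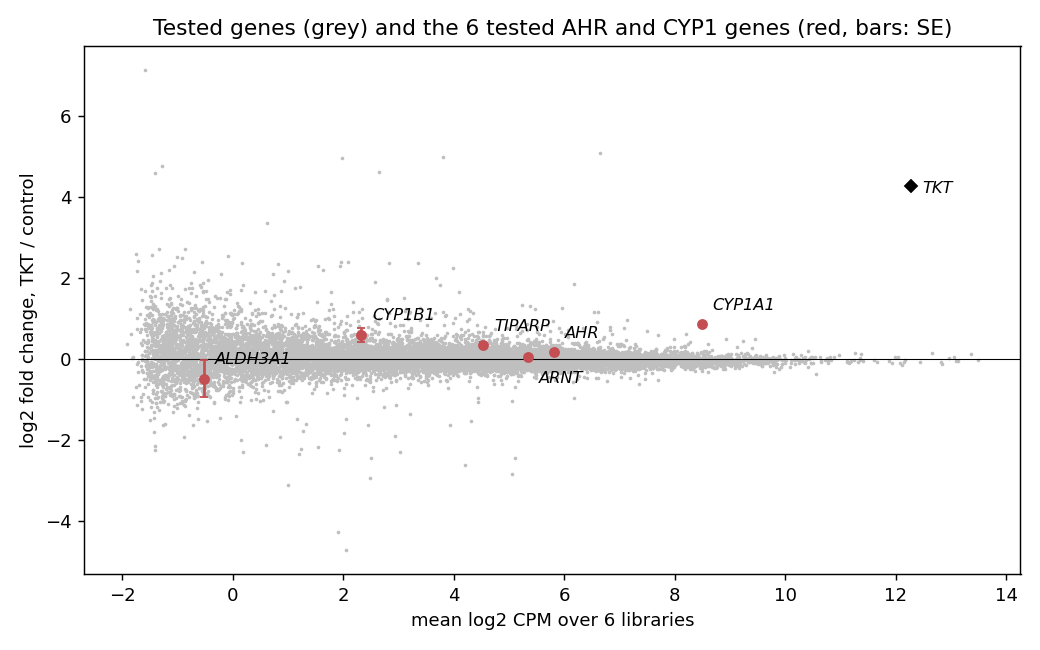
Log2 fold change of TKT against control libraries by mean log2 CPM, with all 14162 tested genes in grey, the 6 tested members in red with SE bars and TKT as a black diamond. CYP1A1 sits at a log2 fold change of 0.86 on the right, abundant side of the cloud, while ARNT lies near 0 and ALDH3A1, at few counts, has the widest bar.

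CYP1A2 (chr15:74748845-74756607, plus strand), which metabolises caffeine and aromatic amines in adult liver, was close to the floor of the table. It had 0, 2 and 8 counts in VC1 to VC3 and 10, 0 and 8 counts in TKT1 to TKT3, that is 10 and 18 counts in sum, and each group held a library at 0. No fold is given, since a difference was not detectable at this depth. A low count in this table need not mean a low transcript level, because APOB, a main apolipoprotein of liver cells, was also listed with 4 counts over the control and 10 over the TKT libraries. How reads that fit more than 1 gene were counted is not given in the sources used here, so reads that the paralogues CYP1A1 and CYP1A2 share are uncertain.

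CYP1B1 (chr2:38067509-38076151, minus strand), a P450 of tissues outside the liver that hydroxylates estradiol and carcinogens, was low. It had 101, 114 and 161 counts in control and 219, 172 and 209 counts in TKT libraries, or 3.21, 3.75 and 4.80 CPM against 5.91, 5.58 and 6.36 CPM. The groups did not overlap, but the control libraries spread widely (coefficient of variation 20.5%, against 6.58% with TKT), and VC3 came within a ratio of 1.16 of the lowest TKT library. The log2 fold change of CYP1B1 was 0.60 (SE 0.17), or 1.51-fold, and it lay between 0.27 and 0.77 in the alternative settings. An antisense gene, CYP1B1-AS1, overlaps it and had 0 to 12 counts per library. Whether counting used the strand is not given, so reads of the pair cannot be told apart.

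ALDH3A1 (chr17:19737984-19748298, minus strand), an aldehyde dehydrogenase and a classical receptor target in rodent liver, was lower still, with 14, 25 and 32 counts in control and 14, 17 and 22 counts in TKT libraries. These were 0.446, 0.823 and 0.954 CPM in control and 0.378, 0.551 and 0.669 CPM with TKT, and the groups overlapped. The log2 fold change of ALDH3A1 was -0.48 with an SE of 0.46, about as large as the value itself.

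Of the feedback regulators, TIPARP alone had enough counts to compare. TIPARP (chr3:156674590-156706770, plus strand), a mono-ADP-ribosyltransferase that promotes degradation of the receptor, had 20.9, 18.5 and 21.7 CPM in VC1 to VC3 and 26.2, 24.9 and 26.6 CPM in TKT1 to TKT3. All TKT libraries lay above all control libraries. The mean went from 20.4 ± 1.65 CPM to 25.9 ± 0.861 CPM (SD, n = 3), a log2 fold change of 0.35 (SE 0.08), or 1.27-fold. TIPARP-AS1, which overlaps its start on the other strand, had 3 to 8 counts per library, against 563 to 970 for TIPARP.

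AHRR (chr5:321714-438285, plus strand), which competes with AHR for ARNT, had 5, 7 and 4 counts in VC1 to VC3 and 3, 5 and 6 counts in TKT1 to TKT3. The groups overlapped, with sums of 16 and 14 counts, and a difference was not detectable at this depth. AHRR overlaps PDCD6 in the annotation (GENCODE 29), a calcium-binding protein gene with 327 to 449 counts per library and a log2 fold change of 0.13 (SE 0.12), and how reads in the overlap were assigned is not given.

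CYP1A1 was also the most abundant of the listed cytochrome P450 genes, though how reads shared by P450 paralogues were counted is not given. Of 45 P450 genes listed, 13 had a mean above 1 FPKM in control libraries, led by CYP1A1, followed by the arachidonic acid epoxygenase CYP2J2 (6.53 ± 0.172 FPKM), the retinoic acid hydroxylase CYP26B1 (6.47 ± 0.248 FPKM), the oxysterol hydroxylase CYP39A1 (6.36 ± 0.0960 FPKM) and the leukotriene hydroxylase CYP4F3 (4.71 ± 0.283 FPKM). CYP1A1 took 54.9%, 53.7% and 53.7% of all P450 counts in VC1 to VC3 and 67.9%, 68.3% and 67.3% in TKT1 to TKT3. Weighted for gene length, as a share of summed FPKM, it took 59.4% to 60.7% in control and 72.3% to 73.0% with TKT.

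The sum of all P450 genes went from between 466 and 475 CPM in control to between 677 and 690 CPM with TKT. Without CYP1A1 the sum was 214, 219 and 216 CPM in VC1 to VC3 and 221, 217 and 222 CPM in TKT1 to TKT3, so the groups overlapped. Of the 26 P450 genes tested, 4 were higher at an adjusted p under 0.05, of which CYP1A1 and CYP1B1 are members that this contrast chose. Among the remaining 24, 2 were higher (8.33%) and 1 lower (4.17%), against 5.69% and 4.94% of all tested genes. The higher ones were CYP2B6, a drug-metabolising enzyme (log2 fold change 0.34, SE 0.09, edgeR adjusted p = 0.0182), and CYP27B1, the vitamin D 1-alpha-hydroxylase (0.60, SE 0.19, edgeR adjusted p = 0.0475). Without VC1, VC3 or TKT1 the number of higher P450 genes was 2, 2 and 1. The adjusted p of CYP2B6 was 0.0853 without VC3 and 0.0615 without TKT1, and that of CYP27B1 lay between 0.103 and 0.189 without VC1, VC3, TKT1 or TKT3. CYP4F12, a fatty acid hydroxylase, was the 1 lower gene (-0.43, SE 0.09, edgeR adjusted p = 0.00218).

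**Figure D3:**
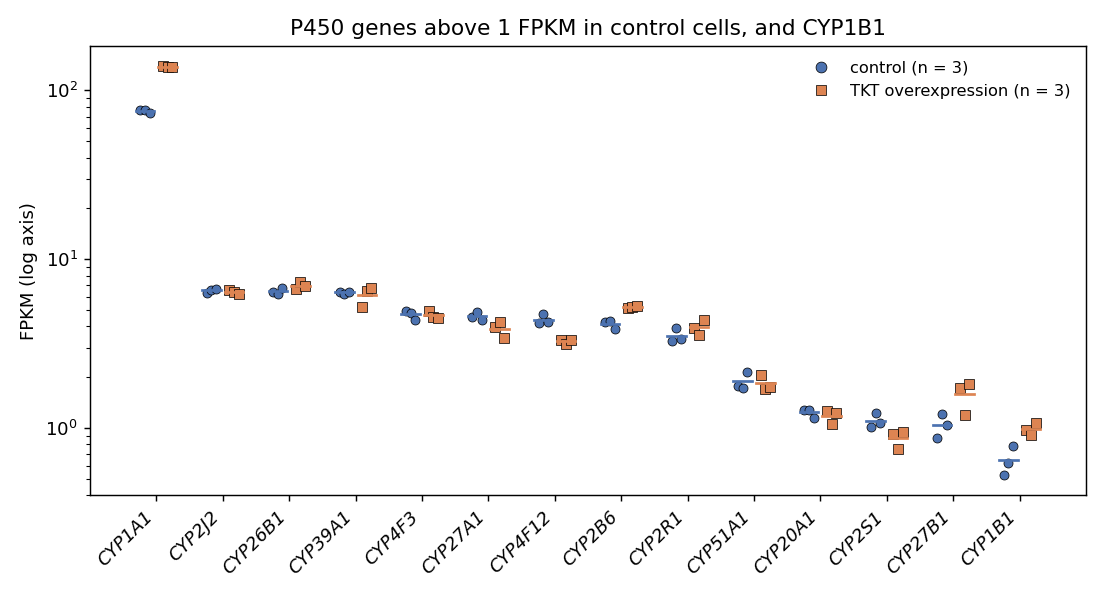
FPKM on a log axis of the 13 P450 genes above 1 FPKM in control libraries and of CYP1B1, with 1 point per library in each group (n = 3). CYP1A1 lies about an order of magnitude above the next gene in control libraries (75.5 against 6.53 FPKM) and further above it with TKT.

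**Figure D4:**
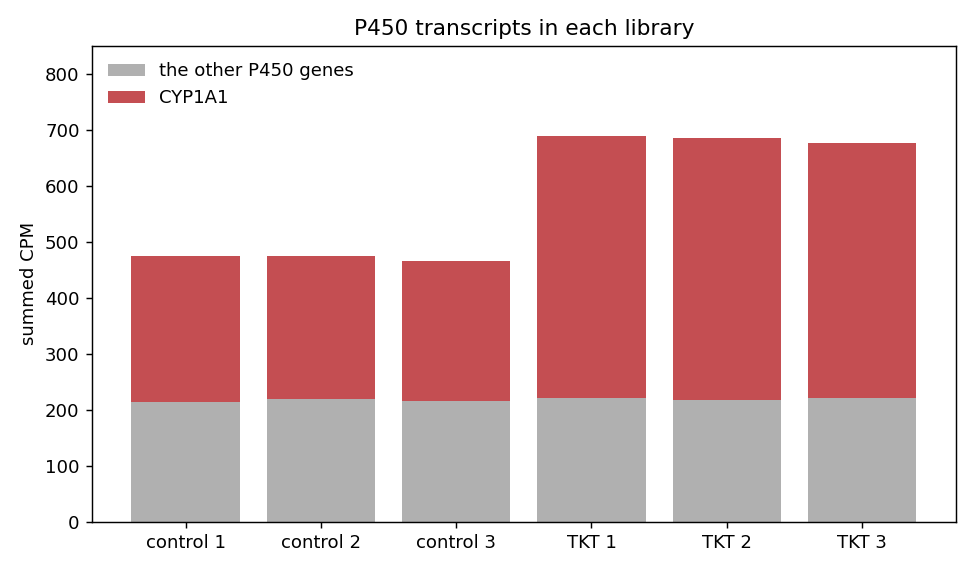
Summed CPM of all listed P450 genes in each of the 6 libraries as stacked bars from 0, with CYP1A1 in red and the other P450 genes in grey. The grey part stays between 214 and 222 CPM in all 6 libraries, and the bars of the TKT libraries are taller in their red part.

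The genes nearest to CYP1A1 in pattern were ranked by the root mean square difference of log2 CPM over the 6 libraries, each gene centred on its own mean, among 11285 other genes. The 5 nearest were CCN1, a matricellular protein gene (difference 0.0479, log2 fold change 0.90), the growth factor binding protein IGFBP3 (0.0547, 0.85), the AP-1 subunit JUN (0.0571, 0.77), the annexin ANXA3 (0.0590, 0.75) and the BCL2 modifier BMF (0.0604, 0.85). Their Pearson correlations with CYP1A1 lay between 0.990 and 0.998 over the 6 libraries. All 6 genes were higher in each TKT library than in each control library, and the points share the same libraries, so the values are a description.

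The receptor pathway beyond the members was followed with 6 lists of textbook genes, of which 98 genes were listed and 89 tested. Over all lists 13 genes rose (14.6%) and 7 fell (7.87%) at an edgeR adjusted p under 0.05, with a median log2 fold change of -0.02. Of all tested genes 5.69% rose and 4.94% fell. The lists were chosen with earlier results of these data known, so these shares and those of each list are a description. Without TKT1 there were 8 rises and 4 falls, and without TKT2 8 rises. Among 19 genes of the receptor complex and its coregulators, 2 rose (10.5%) and 0 fell, with a median of -0.04. KLF6, a zinc finger factor that can partner AHR, rose by a log2 fold change of 0.40 (SE 0.07, edgeR adjusted p = 4.64e-04). The coactivator CREBBP rose by 0.19 (SE 0.06, adjusted p = 0.0412), a call that was lost without VC1, VC3, TKT1, TKT2 or TKT3 (adjusted p between 0.0623 and 0.22).

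Among 12 tested bHLH-PAS genes other than the members, 2 rose (16.7%) and 1 fell (8.33%), with a median of 0.14. The shares over all tested genes were 5.69% and 4.94%. The hypoxia factors HIF1A (log2 fold change 0.15, SE 0.04, edgeR adjusted p = 0.0224) and EPAS1 (0.14, SE 0.04, adjusted p = 0.0216), both partners of ARNT, rose slightly. The clock gene NPAS2 fell (-0.25, SE 0.06, adjusted p = 0.00907). The call of HIF1A was lost without VC1, VC3, TKT2 or TKT3 (adjusted p between 0.0647 and 0.128), that of EPAS1 without VC3, TKT1 or TKT2 (0.0667 to 0.104) and that of NPAS2 without VC1 or TKT1 (0.0598 and 0.0681).

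Other reported target genes of AHR were read the same way, and of 19 tested 5 rose (26.3%) and 0 fell, with a median of 0.20. Of all tested genes 5.69% rose and 4.94% fell. This list too was chosen with earlier results known, so the count is a description. GSTA2, a glutathione transferase, rose from 2.25 ± 0.380 CPM to 4.68 ± 0.279 CPM (SD, n = 3), a log2 fold change of 1.06 (SE 0.20, edgeR adjusted p = 0.00123). Its near copy GSTA1 had a log2 fold change of 0.20 (SE 0.07, adjusted p = 0.0798), and reads shared by the pair are uncertain. The cell cycle gene CCNG2 (0.66, SE 0.15, adjusted p = 0.00633), the adhesion scaffold NEDD9 (0.47, SE 0.08, adjusted p = 6.80e-04) and the Notch target HES1 (0.38, SE 0.08, adjusted p = 0.00441) rose too. Without TKT1 the adjusted p was 0.0564 for CCNG2 and 0.0532 for HES1. NQO1, a quinone reductase that responds to AHR and NRF2, had 624 ± 24.0 CPM in control and 610 ± 27.4 CPM with TKT (log2 fold change -0.03, SE 0.04, adjusted p = 0.671).

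Kynurenine and indole products of tryptophan include ligands of AHR. Of 18 enzymes that make or further convert them 14 were listed, without the entry enzymes TDO2, IDO1 and IDO2, which were not analysed here. Of 13 tested, 1 rose (7.69%) and 0 fell, with a median of -0.07. The shares over all tested genes were 5.69% and 4.94%. KYNU, the kynureninase, which breaks kynurenine down, rose by 0.31 on the log2 scale (SE 0.10, edgeR adjusted p = 0.0465), a call lost without VC1, VC2, TKT1 or TKT2 (adjusted p between 0.119 and 0.218). AFMID, the formamidase that makes kynurenine, had a log2 fold change of 0.04 (SE 0.05, adjusted p = 0.700).

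A cytochrome P450 needs heme and an electron donor, and these genes moved in both directions. Of 17 tested redox partners and heme enzymes, 2 rose (11.8%) and 5 fell (29.4%), with a median of -0.05. The shares over all tested genes were 5.69% and 4.94%. HMOX1, which breaks heme down, rose from 116 ± 2.24 CPM to 160.3 ± 3.54 CPM (log2 fold change 0.47, SE 0.04, edgeR adjusted p = 1.16e-07). ALAS1, the first enzyme of heme synthesis, rose by 0.19 (SE 0.05, adjusted p = 0.0108). Later enzymes of the same route fell, namely PPOX (-0.57, SE 0.14, adjusted p = 0.0100), CPOX (-0.30, SE 0.06, adjusted p = 0.00104) and UROD (-0.26, SE 0.05, adjusted p = 0.00125). The electron carrier CYB5B (-0.25, adjusted p = 4.85e-04) and the cytochrome b5 reductase CYB5R3 (-0.16, adjusted p = 0.0205) fell too. CYB5A, another cytochrome b5 gene of the list, had a log2 fold change of 0.07 (SE 0.06, adjusted p = 0.571). The adjusted p passed 0.05 for ALAS1 without TKT2 (0.0707), for PPOX without VC3 or TKT1 (0.0562 and 0.0617) and for CYB5R3 without VC3, TKT1 or TKT3 (0.0596 to 0.0954). POR, the main electron donor of CYP1A1, had a log2 fold change of -0.10 (SE 0.04, adjusted p = 0.143).

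Among 9 tested xenobiotic receptors and partners other than AHR, 1 rose and 1 fell (11.1% each), against 5.69% and 4.94% of all tested genes. The glucocorticoid receptor NR3C1 rose by 0.48 on the log2 scale (SE 0.08, edgeR adjusted p = 3.85e-04), and the liver factor HNF4A fell (-0.15, SE 0.04, adjusted p = 0.00720, and 0.0555 without TKT1). The pregnane X receptor NR1I2 had 25 counts over the control and 31 over the TKT libraries and was not tested.

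**Figure D5:**
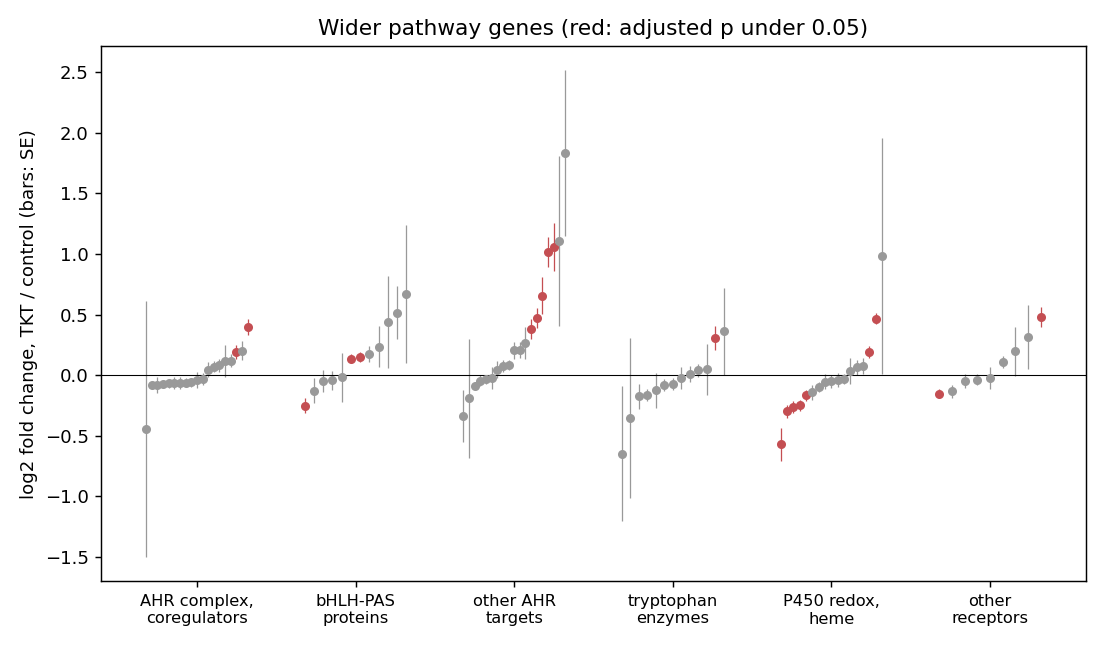
Log2 fold change with SE bars of the tested genes of the 6 wider lists, by list, in red where the edgeR adjusted p was under 0.05 and grey otherwise. The median was 0.20 for the other AHR targets, 0.14 for the bHLH-PAS genes and between -0.07 and -0.02 for the remaining lists. Of the red points 13 lie above 0 and 7 below.

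The annotation columns of the table place 5 of the members, AHR, CYP1A1 and CYP1B1 among them, under xenobiotic metabolic process, a term picked after the values were seen. Leaving the members out, 12 of its 74 tested genes rose (16.2%) and 3 fell (4.05%), against 5.69% and 4.94% of all tested genes, with a median log2 fold change of 0.03. The rises included the microsomal epoxide hydrolase EPHX1 (0.33, SE 0.05, edgeR adjusted p = 1.06e-04), which acts on epoxides that CYP1A1 makes, the sulfotransferase SULT1C4 (0.98, SE 0.21, adjusted p = 0.00400) and the exporter ABCC3 (0.25, SE 0.06, adjusted p = 0.00586). Falls included CYP4F12 and CYB5B. Related pathways of the annotation, read with the members included, differed from each other. Drug metabolism by cytochrome P450 had 2 rises and 1 fall among 36 tested genes (median log2 fold change -0.0013). Metabolism of xenobiotics by cytochrome P450 had 6 rises and 2 falls among 39 (median 0.0014). Steroid hormone biosynthesis had 8 rises and 0 falls among 29 (median 0.11).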

How the data were processed

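RNA was sequenced in 3 TKT overexpression and 3 control libraries. The authors trimmed paired reads with fastp 0.22.0, aligned them to hg38 with HISAT2 2.1.0 (per the labels) and counted them with featureCounts. The deposited counts are raw whole-number counts per gene, and the deposited FPKM values are scaled by the authors for gene length and depth. Annotation, strand and multi-mapping options are not given in the sources used here. No per-sample column was left unused.

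The quasi-likelihood test of edgeR 4.0.16 (run under R 4.3.3, robust, TMM factors, unpaired) was applied to the counts after filterByExpr (minimum count 10, Benjamini-Hochberg over 14162 genes). CPM use TMM-scaled library sizes, and log2 CPM in the ranking of patterns and in the filter of named genes use a prior count of 2. Scripts were tested on simulated counts. Common biological variation was 0.113. Depth was 30148788 to 37096156 counts, and a gene at few counts allows no fold.

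The members and lists were chosen with earlier results of these data known. The members, by that choice, get no p-value. Genes named are TKT, the members, in each of 6 wider lists up to 3 rises and 3 falls with adjusted p under 0.05 (mean log2 CPM 1 or more) plus the first gene present (some genes that this rule names are not reported here), the 5 most abundant P450 genes, and the 5 nearest to CYP1A1 in pattern. CYB5A, CYB5B, CYB5R3, GSTA1, HES1, NEDD9, CYP2B6, CYP27B1, CYP4F12, EPHX1, SULT1C4, ABCC3, marker genes and overlapping or neighbouring genes were named after their values were seen. The members' log2 fold changes, the named genes of the wider lists (CYB5A, GSTA1 and NR1I2 excepted), the P450 genes past the threshold and the counts of calls were also computed with DESeq2 1.42.0, with RLE, upper quartile and total-count scaling, with no filter and a stricter filter, with a replicate block, with each library left out, with limma 3.58.1 on log2(FPKM + 1) and log2(FPKM + 0.1), and, chosen after seeing the data, with TKT left out. Locations and promoter sequences are from RefSeq (GRCh38.p14).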

Additional observations from a re-analysis of the deposited data

How the results depend on the processing

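The log2 fold changes of the 6 tested members kept their sign in all 16 alternatives, with AHR between 0.14 and 0.19, TIPARP between 0.28 and 0.39, ARNT between 0.01 and 0.06 and ALDH3A1 between -0.74 and -0.06. CYP1B1 moved to 0.27 with limma on log2(FPKM + 1), where the pseudocount is above its mean level.

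Counts of calls moved more. Genes at an adjusted p under 0.05 (1505) became 697 with the replicate block, 680 with limma on log2(FPKM + 1), 688 on log2(FPKM + 0.1), and between 791 (without TKT1) and 1586 with a library left out (881 without VC1). With a log2 fold change over 1 as well (103) they became 63 with DESeq2, 160 without a filter, 67 with the block, 14 with limma on log2(FPKM + 1), and between 74 and 128 with a library left out. The 4 members on the higher side became 2 with the block and with limma at either pseudocount, and between 2 and 4 with a library left out. The 13 wider genes that rose became 8 with the block, 7 and 8 with limma at pseudocounts of 1 and 0.1, and between 8 and 14 with a library left out, and the 7 that fell became 4 with the block, 4 and 4 with limma, and between 4 and 8 with a library left out. Of 23 named genes past the threshold, 10 kept their call under all 16 alternatives.

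The replicate numbers did not pair the libraries. Deviations of same-numbered libraries correlated at 0.00603, -0.0664 and 0.0606 across 11286 genes, so calls lost with the block say nothing on the size of an effect. No scaling moved the median of all genes by over 0.1. Depth limits AHRR, CYP1A2 and ALDH3A1, and counting options limit genes that overlap others.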
